A study of Mus musculus with 8 samples.

Results

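Heat shock proteins and their co-chaperones are the proteins that keep other proteins folded, and 34 mouse genes of this kind, fixed by name, were followed among the 39056 genes listed. The list held the cytosolic HSP70 genes Hspa1a, Hspa1b, Hspa8, its near-identical copy Gm15459 and Hspa2, the HSP110 genes Hspa4, Hspa4l and Hsph1, the chaperones of the endoplasmic reticulum (ER) Hspa5 and Hsp90b1, the mitochondrial chaperones Hspa9, Trap1, Hspd1 and Hspe1, the divergent HSP70 gene Hspa12a, the cytosolic HSP90 genes Hsp90aa1 and Hsp90ab1, 7 small heat shock proteins, 6 J-domain proteins, the co-chaperones Bag3 and Stip1, and the heat shock factors Hsf1 and Hsf2. RNA was sequenced from the hearts of 4 mice without the voltage-gated proton channel HVCN1 (HVCN1 null, also written HVCN1-/-, hearts 1 to 4) and from those of 4 wild-type mice (WT, hearts 5 to 8), with 1 library per heart. All were males of 3 months on the C57BL/6 background, and no treatment beyond the gene knockout was named. The knockout was not restricted to a cell type by any label, and whether the WT mice were littermates was not given in the sources used here.

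HSP70 proteins bind unfolded stretches of other proteins and release them in a cycle driven by ATP. J-domain proteins start that cycle, HSP110 proteins exchange the nucleotide, and HSP90 takes over some of the substrates by way of the adaptor protein that Stip1 encodes. When unfolded proteins build up, heat shock factor 1 leaves its chaperone partners, binds repeats of the letters GAA and TTC in promoters and switches on Hspa1a, Hspa1b, Dnajb1 and their like. Heart muscle keeps a large standing pool of small heat shock proteins, which hold sarcomere and cytoskeletal proteins in a foldable state without using ATP.

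Total counts ran from 25851255 to 38874640 per heart, and every one of the 34 genes had between 63 and 97155 counts in each heart. The 4 HVCN1 null hearts together held 16 counts of Hvcn1 and the 4 WT hearts 318, and its log2 fold change was -4.20 (standard error, SE, of 0.38 and adjusted p = 3.63e-04 by edgeR's quasi-likelihood test). Cardiomyocyte markers summed to 56400 to 70000 CPM (counts scaled to the size of each library) in HVCN1 null hearts, against 60400 to 70800 CPM in WT. Markers of atrial tissue divided the hearts in another way, since their sum lay between 203 and 432 CPM in HVCN1 null hearts 1 and 4 and WT hearts 6 and 8, and between 3400 and 8790 CPM in the remaining 4 hearts. RNA was measured in whole tissue, in which fewer cells of a type and less RNA per cell cannot be told apart.

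A few genes stood out, and most of the chaperone set did not differ beyond the spread between hearts. Hspa1a, Hspa1b, Gm15459 and Dnajb1 were higher in HVCN1 null hearts by edgeR's quasi-likelihood test at an adjusted p under 0.05, and no gene of the 34 was lower. These 4 are 11.8% of the 34 genes, and among all 14796 tested genes 1.14% passed the same test, 0.743% as higher and 0.399% as lower in the knockout. The 34 genes were chosen with earlier results of these data known, so their share is a description only. Hspa1a and Hspa1b are near-identical, as are Gm15459 and Hspa8, so the 4 calls are not 4 separate results. At an unadjusted edgeR p under 0.05 the same fit gave 5 genes higher (Dnaja1 in addition) and 2 lower (Hspb7 and Dnaja4), against 5.46% and 5.52% of all tested genes (11% together). In 5 genes every HVCN1 null heart lay above every WT heart and in 1, Hsp90b1, every HVCN1 null heart lay below, where 3.6% and 3.45% of all tested genes did so (7.06% together). The median log2 fold change of the 34 genes was -0.08, with 14 above 0 and 20 below. That of all tested genes was -0.01, with 47.3% above 0 and 52.7% below. For the 30 genes that did not pass the test, the log2 fold changes lay between -0.43 and 0.78, and apart from Dnaja1 (1.71) the ratio of mean CPM, HVCN1 null over WT, was between 0.74 and 1.24.

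**Figure D1:**
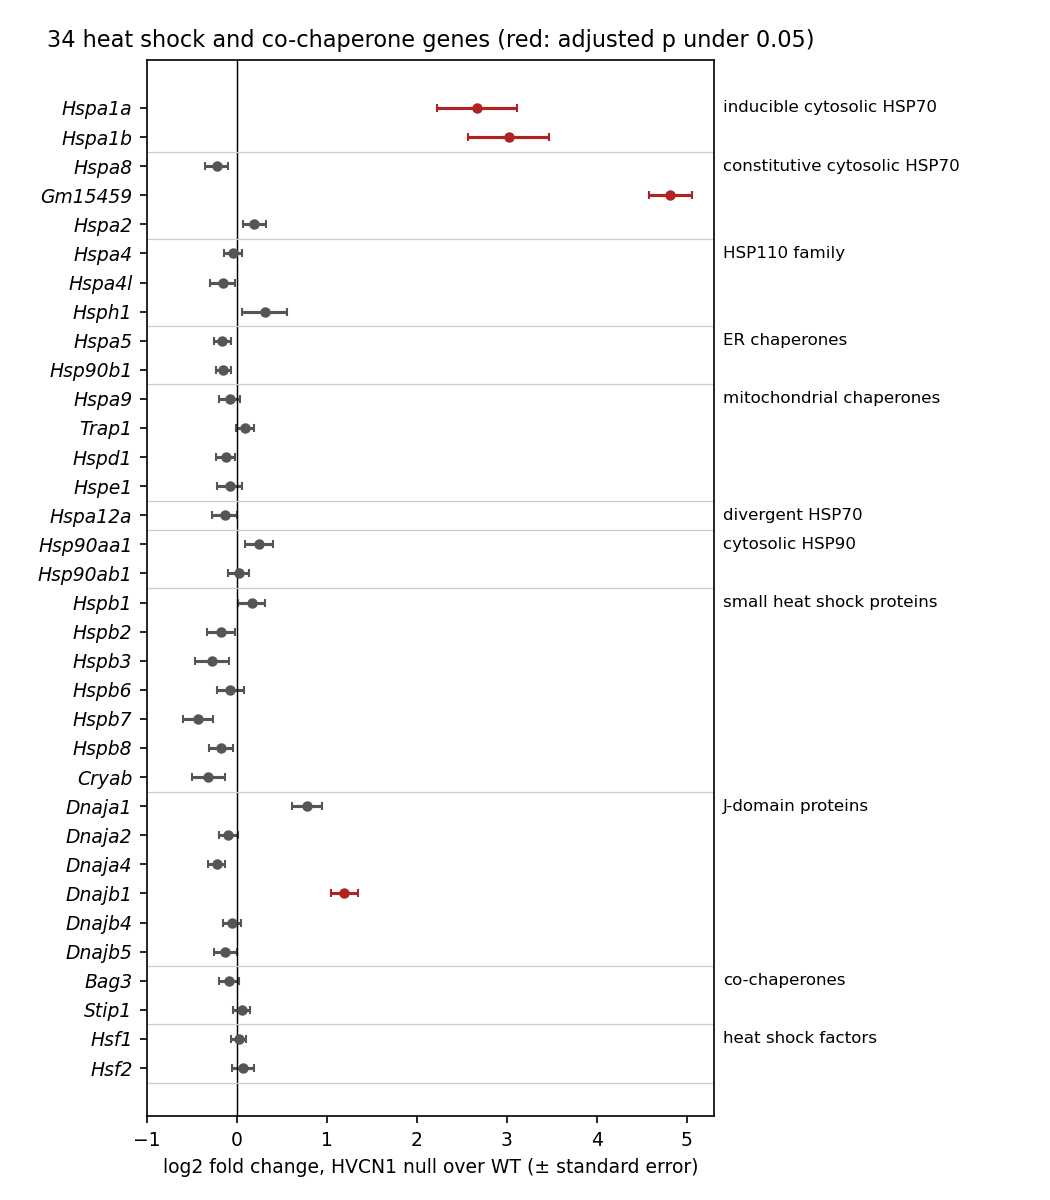
Log2 fold change of the 34 genes, HVCN1 null over WT, on the horizontal axis with bars of 1 standard error, and the genes in rows by class; red points passed an adjusted p under 0.05. Hspa1a, Hspa1b, Gm15459 and Dnajb1 lie between 1.19 and 4.82, and the points of the remaining genes lie between -0.43 and 0.78.

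Inducible HSP70 rose in HVCN1 null hearts. Hspa1a and Hspa1b are neighbouring single-exon genes for the stress-inducible HSP70 of the cytosol, which most tissues at rest hold at a low level. Hspa1a (ENSMUSG00000091971, chromosome 17, 34969190 to 34972156 in GRCm38, minus strand) had 38.6, 10.1, 15.5 and 8.14 CPM in HVCN1 null hearts 1 to 4 and 2.73, 2.69, 3.31 and 2.63 CPM in WT hearts 5 to 8. Hspa1b (ENSMUSG00000090877, chromosome 17, 34956436 to 34959238, minus strand) had 40.4, 10.3, 15.1 and 9.89 CPM in HVCN1 null hearts and 2.88, 1.95, 2.33 and 2.13 CPM in WT hearts. The groups did not overlap for either gene, and HVCN1 null heart 1 stood well above the other HVCN1 null hearts in both. For Hspa1a the means were 18.1 ± 14 and 2.84 ± 0.313 CPM (SD, n = 4 each), and the log2 fold change was 2.67 (SE 0.45, edgeR adjusted p = 0.0202), on 2359 counts against 398. For Hspa1b they were 18.9 ± 14.5 and 2.32 ± 0.406 CPM, a log2 fold change of 3.02 (SE 0.45, edgeR adjusted p = 0.0104), on 2479 counts against 328. The difference in mean CPM had an exact permutation p of 0.0286 for each gene (two-sided, n = 4 and 4), the smallest that the 70 assignments of the hearts allow.

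The size of the difference depended on 1 heart and the call on a few. Without HVCN1 null heart 1 the difference in mean CPM was 8.4 for Hspa1a in place of 15.2, and 9.44 for Hspa1b in place of 16.6. Hspa1a lost the call without WT heart 5, 6 or 8 and with limma's voom (adjusted p up to 0.0815), and Hspa1b lost it without WT heart 6 (edgeR adjusted p = 0.0529). Over 16 alternatives the log2 fold change stayed between 1.98 and 2.91 for Hspa1a and between 2.33 and 3.23 for Hspa1b.

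The coding sequences of Hspa1a and Hspa1b were identical at 99.43% of aligned positions, with 8 substitutions and 3 gap positions, and 82.0% of 50-base windows were the same in both, so reads could be split between them. Added together, they had 79.1, 20.4, 30.6 and 18 CPM in HVCN1 null hearts and 5.62, 4.64, 5.63 and 4.76 CPM in WT hearts. The sum was 7.17-fold higher by its means, with a log2 fold change of 2.84 (SE 0.44, edgeR adjusted p = 0.0127). Hspa1b took 51.5 ± 2.39% of the 2 genes' counts in HVCN1 null hearts and 44.8 ± 4.58% in WT hearts, a difference in share that did not pass the exact permutation test (p = 0.114, two-sided, n = 4 and 4). Both genes therefore held similar parts of the sum, in which neither dominated in any heart. Without WT heart 5 or 6 the sum had an edgeR adjusted p of 0.0519 or 0.06.

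**Figure D2:**
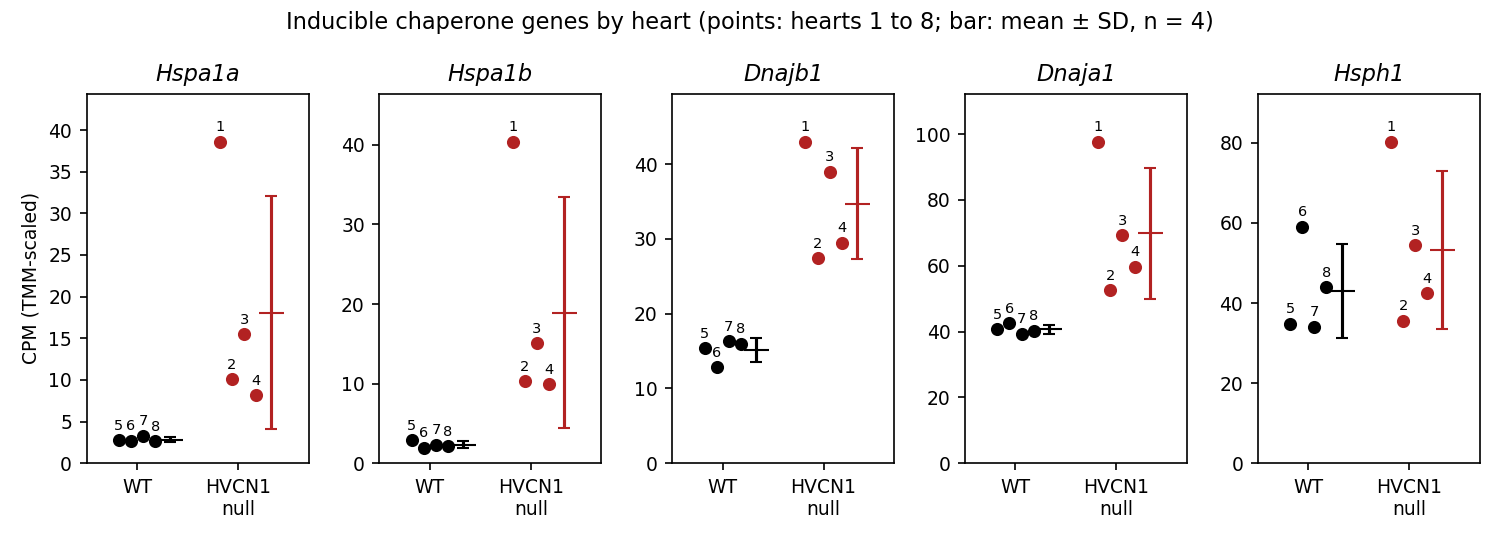
CPM (TMM-scaled) of Hspa1a, Hspa1b, Dnajb1, Dnaja1 and Hsph1 in each WT heart (black) and HVCN1 null heart (red), numbered as in the text, with bars for the mean and SD of 4 hearts. HVCN1 null hearts 1 and 3 are the highest of their group in all 5 panels, and the groups overlap only for Hsph1, where WT heart 6 reaches 59.1 CPM.

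Hspa1a and Hspa1b hold, just upstream of their starts, the letters that heat shock factor 1 is known to bind, and the stretch of Dnajb1 shown beside them has no match. The 150 bases before the RefSeq start of Hspa1a, Hspa1b and Dnajb1, the protein-coding genes that passed the test, are given 5′ to 3′ on the strand of the gene, from RefSeq on GRCm38.p6, with capitals at a match to GAANNTTC or TTCNNGAA. These stretches lie at chr17:34972157-34972306 (minus strand), chr17:34959239-34959388 (minus strand) and chr8:83608025-83608174 (plus strand).
Hspa1a: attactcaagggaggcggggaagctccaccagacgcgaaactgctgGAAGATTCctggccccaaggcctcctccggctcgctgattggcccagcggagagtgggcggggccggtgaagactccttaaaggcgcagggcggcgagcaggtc
Hspa1b: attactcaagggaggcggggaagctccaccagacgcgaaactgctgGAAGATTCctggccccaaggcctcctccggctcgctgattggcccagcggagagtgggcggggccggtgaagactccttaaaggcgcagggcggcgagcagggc
Dnajb1: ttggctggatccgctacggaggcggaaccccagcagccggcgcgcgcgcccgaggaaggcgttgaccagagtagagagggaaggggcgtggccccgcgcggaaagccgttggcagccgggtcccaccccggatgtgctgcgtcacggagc
Hspa1a and Hspa1b shared 1 match, which begins 104 bases before the start, and their stretches differed at 1 base of the 150 shown. Dnajb1 had no match in its windows, which says only that these letters are not there. Both motifs read the same on the opposite strand, so each search covered both strands, and the motifs can overlap one another. Over windows of 300 bases (250 before to 50 after a start), at least 1 match was found in 13 of the 26 genes of the list with a RefSeq entry (50%) and in 14.1% of the 11050 tested genes with one. The 13 were Hspa1a, Hspa1b, Hsph1, Hspd1, Hspe1, Hspb1, Hspb3, Hspb6, Hspb8, Dnaja1, Dnaja4, Dnajb4 and Bag3, and only 2 of these passed the test between the genotypes. The longer form with a repeat more, GAANNTTCNNGAA or TTCNNGAANNTTC, was found in Hsph1, Hspd1 and Hspe1 (11.5%), and in 0.597% of the tested genes. Not all of these promoters are separate sequences. Hspa1a and Hspa1b differ at 3 of the 250 bases before the start, and Hspd1 and Hspe1 lie head to head, so their windows may share bases. Hspa8, Gm15459, Hspa9, Hsp90aa1, Hsp90ab1, Hspb2, Cryab and Hsf1 had no entry.

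J-domain proteins hand unfolded proteins to HSP70 and set off its ATP cycle. Dnajb1 (ENSMUSG00000005483, chromosome 8, 83608193 to 83612653), the J-domain partner that is induced along with HSP70 and is known to restrain heat shock factor 1, had 43.0, 27.4, 39.0 and 29.5 CPM in HVCN1 null hearts and 15.4, 12.8, 16.3 and 16.0 CPM in WT hearts. The lowest HVCN1 null heart lay well above the highest WT heart. The means were 34.7 ± 7.49 and 15.2 ± 1.6 CPM (SD, n = 4 each), a 2.29-fold difference and a log2 fold change of 1.19 (SE 0.15, edgeR adjusted p = 0.0041, exact permutation p = 0.0286). The call held in each of the 16 alternatives, with an edgeR adjusted p of at most 0.02. It was lost in hearts of low or of high atrial content alone, with 2 hearts a group, where the log2 fold change was 1.35 (edgeR adjusted p = 0.0579) and 1.05 (edgeR adjusted p = 0.26).

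Dnaja1 (ENSMUSG00000028410, chromosome 4, 40722150 to 40737149), a J-domain partner of cytosolic HSP70, had 97.7, 52.6, 69.3 and 59.7 CPM in HVCN1 null hearts and 40.8, 42.6, 39.4 and 40.2 CPM in WT hearts. Its groups did not overlap either, and the coefficient of variation (CV) was 28.4% in HVCN1 null hearts and 3.38% in WT hearts. The log2 fold change was 0.78 (SE 0.17), short of the threshold with an edgeR adjusted p of 0.0622 (exact permutation p = 0.0286), and 5 of the 16 alternatives called it. Smu1 and Gm6297 overlap Dnaja1 on the opposite strand, and whether the counting used strand was not given in the sources used here.

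The remaining J-domain genes did not pass the test. Dnaja4 had 87.2, 91.7, 95.8 and 86.4 CPM in HVCN1 null hearts and 90.8, 112, 105 and 115 CPM in WT hearts, with a log2 fold change of -0.23 (SE 0.09, edgeR adjusted p = 0.409, exact permutation p = 0.0857). Only WT heart 5 reached into the range of the HVCN1 null hearts. Dnaja2, the J-domain gene with the most CPM per kb of exon, had 171, 174, 171 and 203 CPM in HVCN1 null hearts and 179, 207, 173 and 209 CPM in WT hearts, with a log2 fold change of -0.10 (SE 0.10, edgeR adjusted p = 0.857, exact permutation p = 0.2). The groups of Dnaja2 overlapped over most of their range. Dnajb4 and Dnajb5 had log2 fold changes of -0.06 and -0.13.

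Hspa8 encodes the constitutive HSP70 of the cytosol, and Gm15459 is annotated as a processed pseudogene, a copy of the spliced Hspa8 RNA in the genome. The exon of Gm15459 (ENSMUSG00000100801, chromosome 5, 5781615 to 5783555, minus strand) and the coding sequence of Hspa8 (ENSMUSG00000015656, chromosome 9, 40800984 to 40810087, plus strand) are both 1941 bases long and aligned without a gap. They differed at 5 positions, counted from 1 at the first base of the Hspa8 coding sequence, which are G114A, C414T, C549T, G1222A and C1440T with the base of Hspa8 first, an identity of 99.74%. The 31 bases around each difference are given 5′ to 3′ from the annotation on GRCm38, with the differing base in capitals, because only reads or read pairs over such a base can tell the 2 genes apart within this stretch.
Hspa8, G114A: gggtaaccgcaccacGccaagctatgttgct
Gm15459, G114A: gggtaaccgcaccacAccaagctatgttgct
Hspa8, C414T: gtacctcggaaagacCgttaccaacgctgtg
Gm15459, C414T: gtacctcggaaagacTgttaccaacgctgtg
Hspa8, C549T: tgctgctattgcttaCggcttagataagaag
Gm15459, C549T: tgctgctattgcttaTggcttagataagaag
Hspa8, G1222A: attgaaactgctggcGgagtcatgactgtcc
Gm15459, G1222A: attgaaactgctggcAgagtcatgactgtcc
Hspa8, C1440T: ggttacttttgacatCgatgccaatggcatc
Gm15459, C1440T: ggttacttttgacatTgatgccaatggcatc
Of all windows of 50 bases, the read length used, 86.8% were identical between the 2 genes, and the longest identical run was 672 bases. The counts of each gene alone are therefore uncertain.

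Gm15459 had 200, 200, 100 and 203 CPM in HVCN1 null hearts 1 to 4 and 6.73, 7.14, 5.55 and 5.50 CPM in WT hearts 5 to 8. Its mean was 28.2-fold higher in HVCN1 null hearts, which is 4.82 as a log2 fold change (SE 0.24, edgeR adjusted p = 5.37e-06, exact permutation p = 0.0286), on 23935 counts against 870. Every HVCN1 null heart lay far above the WT hearts, and heart 3 was the lowest of the HVCN1 null hearts. Hspa8 itself had 820, 768, 981 and 832 CPM in HVCN1 null hearts and 944, 1140, 855 and 1050 CPM in WT hearts. Its log2 fold change was -0.23 (SE 0.12, edgeR adjusted p = 0.581, exact permutation p = 0.143), and HVCN1 null heart 3 was the one that reached the middle of the WT range.

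Added together, Hspa8 and Gm15459 had 1020, 967, 1080 and 1040 CPM in HVCN1 null hearts and 951, 1140, 860 and 1050 CPM in WT hearts. The means were 1030 ± 46.8 and 1000 ± 123 CPM (SD, n = 4 each), and the log2 fold change was 0.03 (SE 0.11, edgeR adjusted p = 0.968, exact permutation p = 0.743). The sum thus showed no difference beyond the spread between hearts, while its division between the genes did. Gm15459 took 19.6, 20.6, 9.26 and 19.6% of the summed counts in HVCN1 null hearts, with 95% Wilson intervals from 8.93 to 9.61% in heart 3 and from 19.2 to 21% over the other 3. In WT hearts it took 0.708, 0.624, 0.646 and 0.523%, with intervals between 0.449 and 0.798%, and these intervals cover counting error only. The share was 17.3 ± 5.36% against 0.625 ± 0.0766% (exact permutation p = 0.0286, two-sided, n = 4 and 4), and heart 3 had 0.464 of the mean share of the other HVCN1 null hearts.

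**Figure D3:**
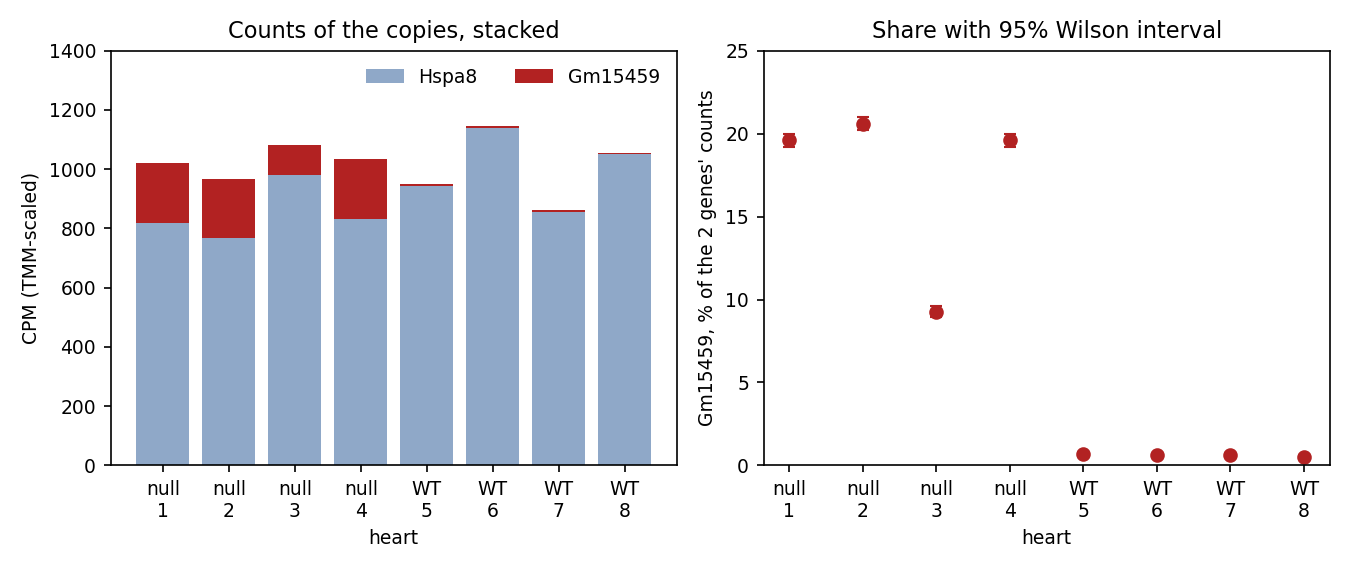
Left, CPM of Hspa8 (blue) and Gm15459 (red) stacked for each heart; right, the percentage of the summed counts of both genes that fell on Gm15459, with 95% Wilson intervals. The stacks reach 967 to 1080 CPM in HVCN1 null hearts, against 860 to 1140 CPM in WT hearts, while the share is 9.26 to 20.6% in the former and below 0.8% in the latter.

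Other copies of Hspa8 did not show such a shift. The processed pseudogenes Gm8355, Gm6210 and Gm8337, each matching Hspa8 at 95% or more, had log2 fold changes of 0.56, 0.31 and 0.81, with edgeR adjusted p of 0.447, 0.876 and 0.455. Gm26825, a long noncoding RNA gene that overlaps Gm15459 on the opposite strand, was higher in HVCN1 null hearts by 4.30 on the log2 scale (edgeR adjusted p = 3.94e-04), on 272 counts over all hearts. Gm15459 had 24805. Whether the counting used strand was not given in the sources used here, so reads of Gm15459 and of Gm26825 may not be separable. Gm26825 was the 1 called gene of 6 tested within 0.5 Mb of Gm15459, which lies 116423249 bases from Hvcn1 on the same chromosome. Within the same distance of Dnajb1, 0 of 21 tested genes passed edgeR's test. Around Hspa1a it was 5 of 55, namely Hspa1b and, of the MHC region, C4a, H2-Q10, H2-Q2 and H2-Q1, all higher in HVCN1 null hearts with log2 fold changes between 2.14 and 6.28. Of all tested genes 1.14% passed, 0.743% as higher. Hspa2, an HSP70 gene known for its role in male germ cells, had 5.88 to 7.79 CPM in HVCN1 null hearts, against 5.56 to 6.80 CPM in WT hearts, with a log2 fold change of 0.19.

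HSP110 proteins act as nucleotide exchange factors for HSP70. Hsph1, the inducible one, had 80.3, 35.6, 54.5 and 42.4 CPM in HVCN1 null hearts and 34.8, 59.1, 34.1 and 44.0 CPM in WT hearts. HVCN1 null heart 1 was the highest, as it was for Hspa1a, but WT heart 6 came second and the groups overlapped, with a log2 fold change of 0.31 (SE 0.25, edgeR adjusted p = 0.790, exact permutation p = 0.486). Hspa4, with the most CPM per kb of the class, had 132, 126, 121 and 132 CPM in HVCN1 null hearts and 114, 144, 126 and 142 CPM in WT hearts, which gave -0.04 as log2 fold change (SE 0.10, edgeR adjusted p = 0.945, exact permutation p = 0.6). The HVCN1 null hearts lay inside the range of the WT hearts. Hspa4l had a log2 fold change of -0.16.

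HSP90 proteins stabilise kinases, steroid receptors and other client proteins. Hsp90aa1, the inducible form, had 131, 91.1, 97.3 and 79.3 CPM in HVCN1 null hearts and 78.0, 99.1, 79.3 and 79.6 CPM in WT hearts, which gave 0.25 as log2 fold change (SE 0.15, edgeR adjusted p = 0.656, exact permutation p = 0.343). HVCN1 null heart 1 stood above the rest, and the other hearts of both groups overlapped. Hsp90ab1, the constitutive form, had 1160, 1080, 1310 and 1170 CPM in HVCN1 null hearts and 1140, 1320, 1030 and 1170 CPM in WT hearts. Its log2 fold change of 0.02 (SE 0.11, edgeR adjusted p = 0.987, exact permutation p = 0.83) was within the spread, and its sign turned without HVCN1 null heart 3 or WT heart 7.

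Several of the 34 genes shared the order of the HVCN1 null hearts seen in Hspa1a and Hspa1b. Heart 1 was highest and heart 3 next in Hspa1a, Hspa1b, Hsph1, Hsp90aa1, Dnaja1, Dnajb1 and Bag3, that is 7 of the 34 genes, and 8.06% of all tested genes had hearts 1 and 3 in these places. This set was noticed after its values were seen. The summed smooth muscle markers Acta2, Myh11, Tagln and Cnn1 had the same order, at 522, 275, 469 and 271 CPM in HVCN1 null hearts 1 to 4, all above the 219, 218, 240 and 165 CPM in WT hearts. Of these 4 markers Acta2 passed edgeR's test, with 357, 150, 336 and 201 CPM in HVCN1 null hearts and 108, 107, 125 and 79.5 CPM in WT hearts (log2 fold change 1.32, adjusted p = 0.0466). Myh11, Tagln and Cnn1 did not pass it. Their groups overlapped, and none of them had heart 1 highest and heart 3 next. The part of smooth muscle in the chaperone values was not tested. The 9 immediate early genes, which are known to respond to stress, summed to 290 to 439 CPM in HVCN1 null hearts, against 233 to 348 CPM in WT hearts, with the highest sum in heart 2. None of the 9 passed edgeR's adjusted test. At an unadjusted edgeR p under 0.05, 2 were higher, Jun and Nr4a1, and 0 were lower, against 5.46% and 5.52% of all tested genes. Jun had 107, 86.3, 88.7 and 82.4 CPM in HVCN1 null hearts, in the same order of hearts as Hspa1a, all above the 73.5, 61.1, 57.4 and 79.5 CPM in WT hearts (log2 fold change 0.42, edgeR adjusted p = 0.199). Nr4a1 had 84.4, 105, 78.5 and 56.3 CPM in HVCN1 null hearts, highest in heart 2, and 61.0, 22.2, 44.4 and 60.6 CPM in WT hearts. Its groups overlapped (log2 fold change 0.79, edgeR adjusted p = 0.322). Of the 9 genes, 7 had a log2 fold change above 0 and 2 below. The part of stress at sampling in the chaperone values was not tested.

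**Figure D4:**
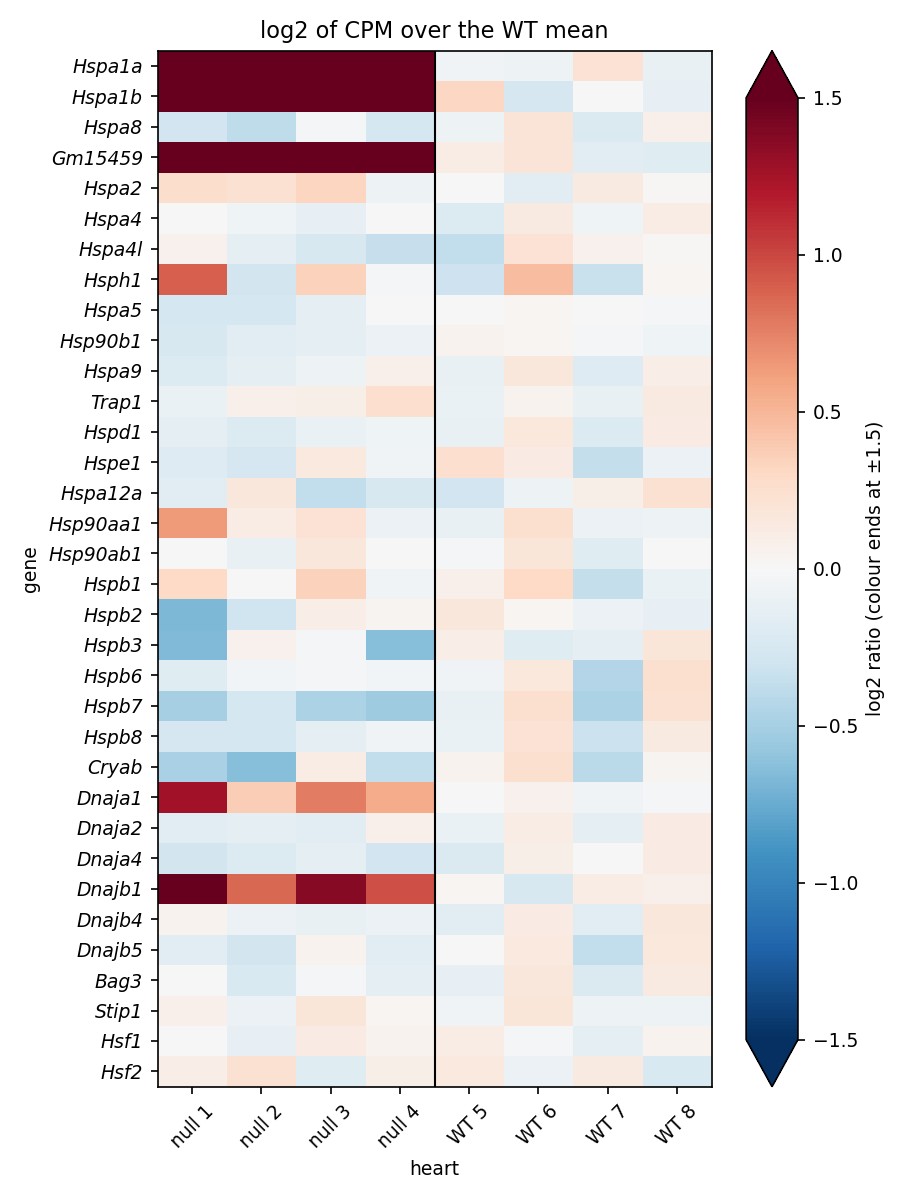
Log2 of the CPM in each heart over the WT mean for the 34 genes in rows, with HVCN1 null hearts 1 to 4 left of the line and WT hearts 5 to 8 right of it; the colour scale ends at ±1.5. Hspa1a, Hspa1b and Gm15459 exceed the scale in all HVCN1 null hearts, Dnajb1 and Dnaja1 are red in all 4, and Hsph1 and Hsp90aa1 are reddest in heart 1, whereas most other genes differ as much between hearts of a group as between groups.

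Chaperones of the ER had lower means in HVCN1 null hearts and did not pass the adjusted test. Hspa5, which encodes BiP, the HSP70 of the ER lumen, had 344, 346, 376 and 414 CPM in HVCN1 null hearts and 416, 421, 411 and 407 CPM in WT hearts. Its WT hearts were tightly grouped (CV 1.5%) and only HVCN1 null heart 4 reached them, with a log2 fold change of -0.16 (SE 0.10, edgeR adjusted p = 0.632, exact permutation p = 0.0857). Hsp90b1, the HSP90 of the ER, had 199, 211, 213 and 220 CPM in HVCN1 null hearts and 244, 239, 231 and 224 CPM in WT hearts. The groups did not overlap, by a margin of a few CPM between HVCN1 null heart 4 and WT heart 8, and the log2 fold change was -0.15 (SE 0.08, edgeR adjusted p = 0.578, exact permutation p = 0.0286).

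The wider list of 29 genes of the unfolded protein response of the ER had more genes below 0 than above. Of the 29, 6 had a log2 fold change above 0 and 23 below, with a median of -0.16, where 47.3% of all tested genes lay above 0 and 52.7% below. None passed edgeR's adjusted test, whereas at an unadjusted p under 0.05 there were 1 higher and 7 lower, against 5.46% and 5.52% of all tested genes. Sdf2l1, a partner of ER J-domain proteins, had the smallest p, with 3.09, 4.15, 4.52 and 2.97 CPM in HVCN1 null hearts and 7.57, 6.68, 7.46 and 4.96 CPM in WT hearts. All HVCN1 null hearts lay below all WT hearts, and its log2 fold change was -0.86 (SE 0.19, edgeR adjusted p = 0.068).

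Mitochondrial chaperones fold proteins that enter the matrix. Hspa9, the HSP70 of the matrix, had 497, 522, 546 and 604 CPM in HVCN1 null hearts and 531, 646, 504 and 617 CPM in WT hearts, with a log2 fold change of -0.08 (SE 0.12, edgeR adjusted p = 0.895, exact permutation p = 0.429). The groups overlapped, as they did for Trap1 (0.09), Hspd1 (-0.13) and Hspe1 (-0.08, log2 fold changes). Hspd1 and Hspe1, which encode the barrel and the lid of the matrix chaperonin, lie head to head with overlapping ends on opposite strands. Hspa12a, a distant HSP70 relative, had 33.8, 42.5, 29.3 and 31.9 CPM in HVCN1 null hearts and 30.9, 35.9, 40.3 and 44.2 CPM in WT hearts, without a difference beyond the spread (log2 fold change -0.14, SE 0.14, edgeR adjusted p = 0.846, exact permutation p = 0.429).

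Of the classes among the 34 genes, small heat shock proteins had the largest summed CPM in both groups. The 7 genes summed to 5800 ± 1110 CPM (SD, n = 4) in WT hearts, which was 52.7% of the sum over all 34 genes. In HVCN1 null hearts they summed to 4730 ± 331 CPM, of a mean of 9860 CPM over all 34 genes. Cryab, which encodes alphaB-crystallin, had 1130, 1020, 1720 and 1230 CPM in HVCN1 null hearts and 1640, 1880, 1200 and 1630 CPM in WT hearts. Its groups overlapped through HVCN1 null heart 3 and WT heart 7, with a log2 fold change of -0.32 (SE 0.19, edgeR adjusted p = 0.616, exact permutation p = 0.257).

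Hspb7, a muscle form needed to keep actin filaments of the sarcomere at their length, had 1800, 2120, 1830 and 1760 CPM in HVCN1 null hearts and 2350, 3000, 1830 and 2970 CPM in WT hearts. WT heart 7 alone lay among the HVCN1 null hearts. The log2 fold change was -0.43 (SE 0.16, unadjusted edgeR p = 0.0232, edgeR adjusted p = 0.335, exact permutation p = 0.0857). In hearts of low atrial content alone the log2 fold change was -0.73, in hearts of high atrial content alone -0.09, and with an atrial score in the edgeR fit -0.33 (adjusted p = 0.376). Hspb1, Hspb2, Hspb3, Hspb6 and Hspb8 had log2 fold changes between -0.28 and 0.16, and Hspb2 and Cryab overlap on opposite strands.

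Among the WT hearts part of the chaperone genes followed the atrial content. In 16 of the 34 genes (47.1%) both WT hearts of low atrial content (6 and 8) were higher than both of high content (5 and 7), and this held for 23.8% of all tested genes. The 16 included Hspb6, Hspb7, Hspb8, Hspa8, Hspa9, Hspd1, Hsp90ab1 and Bag3, but not Cryab, Hspb1, Hspb2 or Hspb3. In HVCN1 null hearts, hearts 1 and 4 were both higher than hearts 2 and 3 in 2 of the 34 genes (5.88%, against 10.3% of all tested genes). The opposite order, with both hearts of low atrial content lower, held in 3 of the 34 genes in WT hearts (8.82%, against 21.6% of all tested genes). In HVCN1 null hearts it held in 4 (11.8%, against 12.2% of all tested genes). Heart 6 was the highest WT heart for 17 of the 34 genes, and for 18.8% of all tested genes. Over all 34 genes the summed CPM was 9580, 9480, 10600 and 9820 in HVCN1 null hearts and 10500, 12500, 8960 and 11800 in WT hearts, so the HVCN1 null hearts lay within the range of the WT hearts.

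The co-chaperones and the heat shock factors did not pass the test between the genotypes. Bag3, which links HSP70 to small heat shock proteins and to the autophagy of damaged sarcomere proteins, had 350, 299, 345 and 317 CPM in HVCN1 null hearts and 321, 392, 300 and 383 CPM in WT hearts, with a log2 fold change of -0.09 (SE 0.12, edgeR adjusted p = 0.885, exact permutation p = 0.4). Stip1 had a log2 fold change of 0.05. Hsf1, whose protein drives the heat shock response and is controlled mainly after translation, had 36.8, 33.6, 40.1 and 38.0 CPM in HVCN1 null hearts and 39.6, 36.1, 33.1 and 38.0 CPM in WT hearts. The groups overlapped almost fully, with a log2 fold change of 0.02 (SE 0.09, edgeR adjusted p = 0.980, exact permutation p = 0.8), and Hsf2 had 0.07.

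Per kb of exon, the levels of the 34 genes spanned a 1300-fold range in WT hearts. By its mean Cryab was highest at 1080 ± 191 CPM per kb (SD, n = 4), followed by Hspb7 at 916 ± 202. Then came Hspb6 at 417 ± 83.2 and Hsp90ab1 at 388 ± 39.4. All genes were measured in the same hearts, and differences between genes were not tested. Hspb8 (249 ± 40.3) and Hspa8 (231 ± 28.4) came next. At the low end stood Hsf2 at 1.04 ± 0.130, Hspa1a at 0.957 ± 0.106 and Hspa1b at 0.828 ± 0.145 CPM per kb. In HVCN1 null hearts Hspa1a and Hspa1b reached 6.10 and 6.75 CPM per kb, which stayed far below the 198 CPM per kb of Hspa8 in the same hearts.

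**Figure D5:**
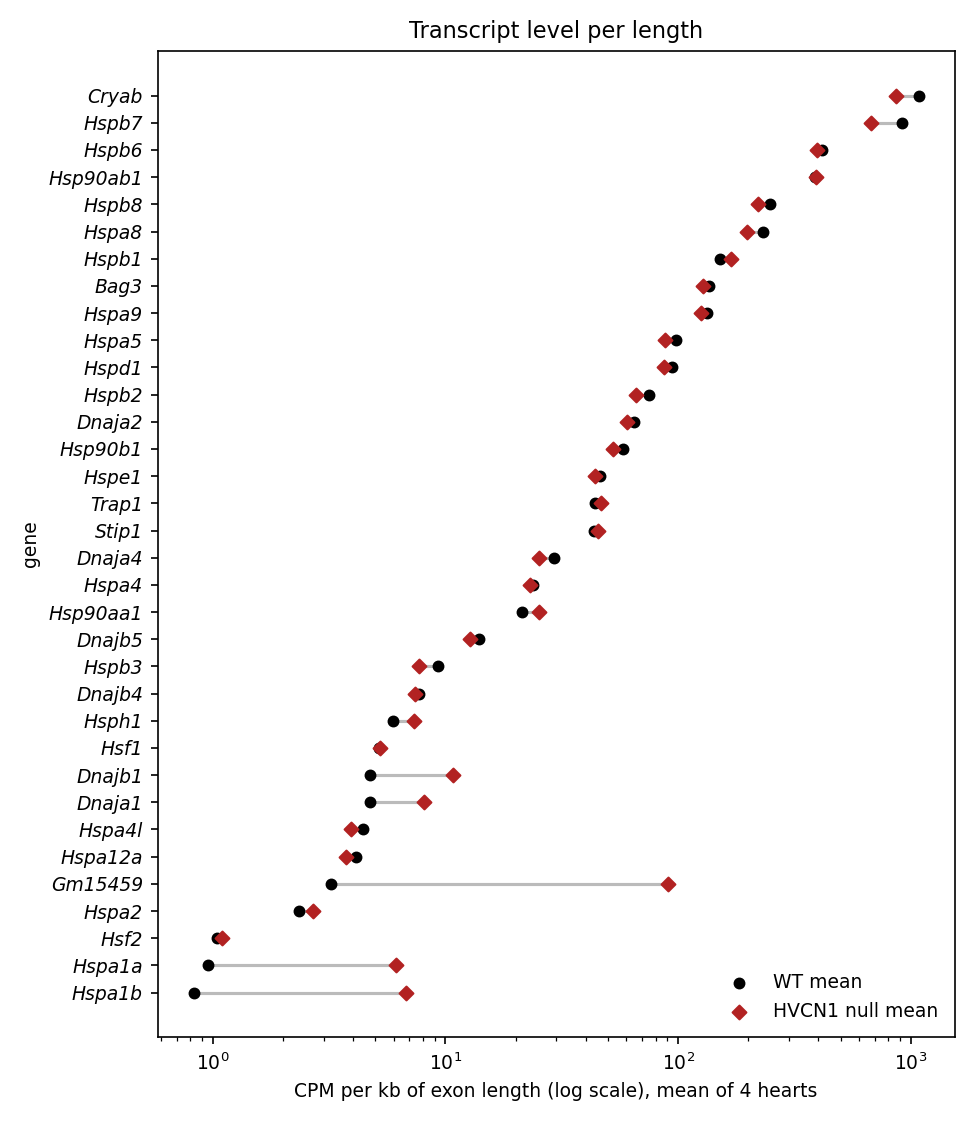
Mean CPM per kb of exon length for the 34 genes in WT hearts (black circles) and HVCN1 null hearts (red diamonds), 4 hearts each, on a log axis and in the order of the WT level. The long grey lines mark Gm15459 (3.21 to 90.5), Hspa1a (0.957 to 6.10), Hspa1b (0.828 to 6.75) and Dnajb1 (4.73 to 10.8), while Cryab, Hspb7, Hspb6, Hsp90ab1 and Hspb8 hold the top places in both groups.

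In the rest of the chaperone network, lists by function held 139 genes, of which 132 were tested, and 1 of these passed the adjusted test, Pih1d1 of the HSP90 co-chaperones (0.758%, against 1.14% of all tested genes). Pih1d1, a subunit of the R2TP complex that works with HSP90, had 30.4, 35.7, 41.5 and 34.4 CPM in HVCN1 null hearts and 27.1, 23.1, 25.1 and 24.2 CPM in WT hearts, without overlap and with a log2 fold change of 0.51 (SE 0.10, edgeR adjusted p = 0.0466). Only 1 of the 8 fits without a single heart called it. The median of the 21 tested genes of that list was 0.05. At an unadjusted edgeR p under 0.05, 2 of them were higher, Pih1d1 and Fkbp5 (log2 fold change 0.53), and 0 were lower, against 5.46% and 5.52% of all tested genes. Of the 5 other HSP70 and HSP110 genes none passed edgeR's adjusted test, and their median was -0.14. At an unadjusted edgeR p under 0.05, 2 were lower, where 5.52% of all tested genes were.

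Hspa1l, an HSP70 gene next to Hspa1a that is known from the testis, had the smallest p of them, with 3.99, 5.43, 6.61 and 3.08 CPM in HVCN1 null hearts and 7.54, 11.8, 7.04 and 10.2 CPM in WT hearts. It lay below the WT hearts in every HVCN1 null heart, with a log2 fold change of -0.94 (SE 0.25, edgeR adjusted p = 0.130), the opposite sign to its neighbours Hspa1a and Hspa1b.

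In the other lists no gene passed edgeR's adjusted test, and the counts at an unadjusted p under 0.05 were small. Of all tested genes 5.46% were higher and 5.52% lower at that level. Of 35 tested J-domain genes 1 was lower at that level (Dnajc12, log2 fold change -0.37) and their median was -0.06. The 12 nucleotide exchange factors and HSP70 regulators had none, with a median of 0.03 and the smallest p in Grpel1. The 15 genes of the chaperonin TRiC and prefoldin had none, with a median of 0.00 and the smallest p in Pfdn6. Among 15 mitochondrial chaperones and proteases 1 was higher (Clpx, 0.34), with a median of 0.00. Of 6 tested genes for other heat shock factors and regulators 1 was higher (Hsf4, 0.50), with a median of 0.02, and of 4 other small heat shock proteins Hspb11 alone was tested, at -0.04.

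The cold-inducible RNA-binding proteins, whose RNA is known to move against that of heat shock genes when temperature changes, did not pass the adjusted test. Rbm3 had 50.4, 67.3, 54.4 and 56.9 CPM in HVCN1 null hearts and 51.5, 41.8, 53.5 and 42.1 CPM in WT hearts, which gave 0.28 as log2 fold change (SE 0.12, edgeR adjusted p = 0.428). Cirbp had 38.4, 39.3, 53.5 and 49.3 CPM in HVCN1 null hearts and 49.4, 37.4, 37.1 and 35 CPM in WT hearts, which gave 0.18 as log2 fold change (edgeR adjusted p = 0.768). Both had overlapping groups, and the part of temperature in the chaperone values was not tested.

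Heat shock genes also vary with the time of day, so clock genes were read beside them. The 13 clock genes summed to 483 to 556 CPM in HVCN1 null hearts, against 415 to 484 CPM in WT hearts, and 1 of them passed edgeR's adjusted test. Per1 had 96.9, 103, 96.8 and 65.1 CPM in HVCN1 null hearts and 56.8, 38.9, 42.4 and 37.3 CPM in WT hearts, which gave 1.05 as log2 fold change (SE 0.17, edgeR adjusted p = 0.0178). All HVCN1 null hearts lay above the WT hearts. Of the 13, 7 had a log2 fold change above 0 and 6 below, where 47.3% of all tested genes lay above 0 and 52.7% below. At an unadjusted edgeR p under 0.05, 5 were higher and 1, Arntl, was lower (log2 fold change -0.45), against 5.46% and 5.52% of all tested genes. In 3 of the 13 every HVCN1 null heart lay above every WT heart, against 3.6% of all tested genes. Per2 had 10.9, 6.15, 12.6 and 7.38 CPM in HVCN1 null hearts and 3.47, 3.28, 4.42 and 5.27 CPM in WT hearts (log2 fold change 1.17, edgeR adjusted p = 0.0527), and Ciart had 4.32, 2.70, 4.45 and 2.63 CPM against 1.67, 2.29, 1.83 and 2.03 CPM. Neither overlapped between the groups. Hearts 1 and 3 were the highest HVCN1 null hearts in both and in the sum over the 13 genes, as in Hspa1a and Hspa1b. Heart 3 was however above heart 1 in Per2, Ciart and the sum. Other clock genes that were higher at an unadjusted edgeR p under 0.05 had other orders. Per1 was highest in heart 2, Dbp in heart 3 with heart 4 next, and Per3 in heart 4. The part of sampling time in the chaperone values was not tested. Among the markers of other cell types, none of which was at 0, the smooth muscle sum given above did not overlap between the groups (exact permutation p = 0.0286). Of its genes only Acta2 was without overlap, while Myh11, Tagln and Cnn1 overlapped. The sums of the 7 lists given next overlapped as well. Macrophage markers summed to 194 to 256 CPM in HVCN1 null hearts, against 219 to 311 CPM in WT hearts, endothelial markers to 838 to 1090 and 889 to 1100, fibroblast markers to 894 to 1440 and 956 to 1560, B lymphocyte markers to 1.82 to 15.8 and 3.62 to 11.5, erythroid genes to 1290 to 8380 and 3010 to 15200, adipocyte markers to 320 to 429 and 414 to 549, and skeletal muscle markers to 2040 to 2630 and 1740 to 2790. No gene of these 7 lists or of the cardiomyocyte and atrial lists passed edgeR's adjusted test, and at an unadjusted p under 0.05 there were 6, all lower. The adipocyte sum was nearly all Fabp4 (means of 369 CPM in HVCN1 null and 466 CPM in WT hearts). Adipoq, Plin1 and Cfd had means of at most 10.7 CPM. The skeletal muscle sum was nearly all Ckm (1930 and 1970 CPM) and Acta1 (356 and 442 CPM), with Tnnt3 and Mylpf at most 1.09 CPM. These sums therefore describe those few genes rather than fat or skeletal muscle tissue.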

How the data were processed

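RNA-seq libraries were made from the hearts of 4 HVCN1 null and 4 WT mice. The authors selected poly-A RNA, used a kit with strand selection, sequenced 2 × 50 bases, aligned with STAR and counted reads on Ensembl genes with featureCounts (versions, and the strand and multi-mapping settings of the counting, are not given in the sources used here). The processing notes name mm10 and GRCm38, and the article text another genome. The deposited values are whole-number counts for each gene in each library, not normalized. By identifier, 38872 genes (99.5% of those listed) were found in GENCODE M21 on GRCm38.

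TMM-scaled CPM values came from edgeR 4.0.16 (R 4.3.3). The 14796 genes kept by filterByExpr, all 34 genes of the list among them, were fitted together with edgeR's quasi-likelihood test with genotype as the only term, and p-values were Benjamini-Hochberg adjusted over all 14796. P-values measure the spread between hearts. Differences in mean CPM of single genes were compared by two-sided exact permutation, with 70 assignments of the hearts (scipy 1.17.1), for which the smallest p is 0.0286. Counts of near-identical copies were also added and fitted as 1 gene. Lists were described by counts and medians, with no test.

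The genes and lists were chosen with earlier results of these data known. Genes given in full are those past an adjusted or unadjusted p of 0.05, those whose groups did not overlap, Hspa8, and the gene of most CPM per kb in each class, and from each further list the called genes and the gene of smallest p. Hsph1, Hsp90aa1, the copies of Hspa8, the genes around the called genes, and the marker genes with values were added after their values were seen. Copies were searched with BLAST+ 2.17.0 and aligned with Biopython 1.88, and promoters came from RefSeq on GRCm38.p6. Alternatives were RLE scaling or none, other filters, DESeq2 1.42.0, limma 3.58.1 voom, edgeR's likelihood ratio test, an atrial covariate and each heart left out. The fits were tested on simulated data. Plots were drawn with matplotlib 3.10.9.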

Additional observations from a re-analysis of the deposited data

Results flagged for a closer look

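With 4 hearts a group, 68 groups (34 genes by 2 genotypes) were examined for a heart that stood apart, where the gap to the nearest heart took up more of the group's range than Dixon's 95% limit for 4 values allows. Chance flags about 1 in 20 groups, and 8 groups were flagged. Of the genes that passed the test, Hspa1b was high in HVCN1 null heart 1 at 40.4 CPM, Gm15459 was low in HVCN1 null heart 3 at 100 CPM, and Hspa1a was high in WT heart 7 at 3.31 CPM. In the remaining genes HVCN1 null heart 1 was low for Hspb6 at 843 CPM and high for Dnajb4 at 69.8 CPM, HVCN1 null heart 4 was high for Dnaja2 at 203 CPM, and WT heart 6 was high for Hsp90aa1 at 99.1 CPM and for Stip1 at 104 CPM. The groups of these 3 called genes did not overlap, so each flagged heart necessarily lay on the same side as the rest of its own group.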

How the results depend on the processing

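Gm15459 and Dnajb1 kept their direction and call in all 16 alternatives of scaling, filter, test, covariate or 1 heart left out, Hspa1b in 15 and Hspa1a in 12, and Dnaja1 gained a call in 5. The number of the 34 genes higher at an adjusted p under 0.05 was 2 without WT heart 6 and lay between 2 and 5 with 1 heart left out, and no gene was lower in any alternative. Within hearts of low atrial content only, or of high content only (2 against 2, chosen after seeing the data), 1 gene was called in each, Gm15459. Of the further lists, the 1 call for higher became 0 without scaling, with the CPM filter, with voom and with the atrial covariate, 2 with DESeq2, and 0 to 1 with 1 heart left out. The 0 calls for lower became 1 without a filter or with the covariate and 2 with DESeq2 or the likelihood ratio test. The number of all genes called was 466 with DESeq2, 376 with the likelihood ratio test and 71 to 152 with 1 heart left out. The sum of Hspa1a and Hspa1b was past the threshold except without WT heart 5 or 6 (log2 fold change 2.89 and 2.79, in a range from 2.15 to 3.07 with 1 heart left out). The sum of Hspa8 and Gm15459 turned to -0.03 without WT heart 7 (range -0.03 to 0.10), and taken singly the genes gave -0.23 and 4.82. The cause of these changes was not tested.

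The sign turned only in genes near 0 that were not called. With 1 heart left out the log2 fold change ranged from -0.10 to 0.00 for Hspa4, -0.18 to 0.02 for Hspe1, -0.04 to 0.08 for Hsp90ab1, -0.19 to 0.02 for Hspb6, -0.10 to 0.01 for Dnajb4 and -0.02 to 0.07 for Hsf1. Without scaling Hspa4 was at 0.00, and with the covariate Hspa4, Hspb6 and Dnajb4 were at 0.00, 0.02 and 0.00. The difference in mean CPM then ranged from -9.64 to 0.378 for Hspa4, -8.73 to 0.64 for Hspe1, -30.2 to 65.1 for Hsp90ab1, -133 to 9.88 for Hspb6, -5.17 to 0.134 for Dnajb4, -0.726 to 1.65 for Hsf1 and -0.0302 to 1.0 for Hsf2.

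With 1 heart left out the smallest exact permutation p is 0.0571, so these tests could not pass 0.05. The fewest counts were those of Hspa1a and Hspa1b in WT hearts, at 63 to 125 a heart, and fold changes of these genes are the least precise of those called. No paired analysis was possible because each replicate number occurs once, and no batch is given.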
